A study of Mus musculus with 18 samples.

Results

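The cytosolic ribosomal protein genes are the genes named Rpl, Rps, Rplp and Rpsa, and they were chosen by symbol from the gene table of quadriceps myofibers of prednisone-treated mice. Of 43430 gene identifiers in the table, 348 had a symbol of this pattern. The 10 S6 kinases, 246 symbols of pseudogenes and 6 symbols annotated as pseudogenes were set aside, and Rpl10l was left out because it had fewer than 10 counts in all 18 libraries (0 counts in total). This left 85 genes, of which 43 encode large subunit proteins, 31 small subunit proteins and 3 proteins of the acidic stalk, and 8 are paralogs or carry the name only. Rpl39l, with 87 counts in all and 10 or more in 3 libraries, was the weakest member kept. The filter on low counts used for testing passed 84 of the 85 members, leaving out Rpl39l, and 13596 genes in all.

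The mice were male and female C57BL/6 animals by the labels, C57BL/6J by the study's methods, 10 weeks old at the first injection and treated for 4 weeks. There were 6 groups of 3 libraries, male vehicle, male weekly, male daily, female vehicle, female weekly and female daily, each library from 1 animal. Daily mice received 1 mg/kg prednisone by intraperitoneal injection every day, weekly mice received it on 1 day of the week and vehicle on the other days, and vehicle mice received DMSO in PBS every day. The last weekly prednisone dose was given 2 days before tissue was taken. Polyadenylated RNA came from the fraction of collagenase-digested quadriceps that a 40-µm strainer held back, so other cells of the muscle can be in it. With 3 libraries a group, every p reflects the spread between these animals only.

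Cytosolic ribosomes join a large and a small subunit, each made of ribosomal RNA and proteins, and translate every nuclear-encoded message. Most subunit proteins are made in equal amounts, and their messages are short, abundant and often start with a run of pyrimidines that links their translation to mTOR signalling. Some genes have paralogs used in particular tissues, such as Rpl3l, the muscle counterpart of Rpl3.

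The start regions of members are shown because the pyrimidine run at the start was present in a larger share of member windows than of all windows. Most member windows lacked it at the annotated first base. A run counted only if it began exactly there, so a start annotated some bases off would miss it. RefSeq start windows (GRCm38.p6, from 250 bases before to 50 bases after the start) were found for 65 of the 85 members, in 77 windows. A C followed by 4 or more pyrimidines directly at the start was in 14 of these 77 windows (18.2%), against 2.51% of all 32851 windows in the table. Shown are 5 members with this run and low daily log2 fold changes over both sexes, from -0.89 for Rpl38 to -0.66 for Rps27. They are not a full ranking, and a member with the run that is not shown can have a lower value than some of them. Rpl37a, which had the lowest of all members, and Rpl3l are shown without the run. Each line gives 50 bases before and 20 bases from the annotated start, in 5′ to 3′ order of the gene, and capitals mark the run.

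Rpl38, chr11:114668530-114668599, plus strand: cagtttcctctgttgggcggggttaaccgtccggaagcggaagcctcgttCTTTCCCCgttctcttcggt
Rps21, chr2:180257329-180257398, plus strand: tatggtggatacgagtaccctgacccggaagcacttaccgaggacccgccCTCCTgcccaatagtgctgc
Rplp2, chr7:141447601-141447670, plus strand: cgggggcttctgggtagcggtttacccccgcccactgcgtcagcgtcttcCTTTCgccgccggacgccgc
Rpl35a, chr16:33056432-33056501, plus strand: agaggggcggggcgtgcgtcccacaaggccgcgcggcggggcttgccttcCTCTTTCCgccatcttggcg
Rps27, chr3:90213629-90213698, minus strand: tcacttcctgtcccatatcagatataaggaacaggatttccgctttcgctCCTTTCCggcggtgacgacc
Rpl37a, chr1:72711210-72711279, plus strand: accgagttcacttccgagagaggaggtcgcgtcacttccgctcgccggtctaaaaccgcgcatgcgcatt
Rpl3l, chr17:24727776-24727845, plus strand: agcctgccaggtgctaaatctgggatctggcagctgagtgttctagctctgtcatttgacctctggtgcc

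A longer run, a C and 7 or more pyrimidines within 20 bases before and 50 bases after the start, was in 66.2% of member windows and 20.03% of all windows. On both strands, CCGGAAG, the core of ETS factor sites, was in 35.1% of member windows and 8.86% of all windows. ATGGCGGC, a YY1 core, was in 6.49% and 2.24%, the MYC E-box CACGTG in 10.4% and 7.15%, and the TATA box TATAAA in 9.09% and 13.6%. The glucocorticoid receptor pattern ACANNNTGT was in 1.3% of member windows and 6.85% of all windows. A match to letters in a window is not a site in use. Members with the run at the annotated start (14 genes) had median log2 fold changes of -0.58 in daily males and -0.65 in daily females. The 50 other members with a window and a test had -0.55 and -0.56.

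Levels differed greatly between members. Per kilobase of transcript (the median protein-coding transcript of each gene in GENCODE M21), Rplp1 was the most abundant in vehicle mice, at a mean of 816 CPM per kb, where CPM is the TMM-scaled count relative to the library total. Rplp0 followed at 702, Rplp2 at 544, Rpl13a at 529.8 and Rps24 at 499. All 3 stalk proteins, which bind the translation factors, were thus among the 5 most abundant members. The least abundant were Rpl39l at 0.442, Rps19bp1 at 7.998, a binding partner of Rps19 and no ribosomal protein, and Rpl21 at 17.3 CPM per kb. Reads of members can also come from near-identical copies or be lost to them. A median of 34.5% of the 50-base stretches of a member also occurred in a transcript of another gene. For Rps27rt this was 91.1%, for Rpl36a 85.5%, for Rpl24 81.7% and for Rpl3 67.1%, so these levels are uncertain. Rpl21 shared 19.7%, with transcripts of 82 genes, so its low level is uncertain too.

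Together the 85 members held a small and changing share of all counts. In male vehicle libraries the share was 1.40%, 1.31% and 1.32%, in male weekly 1.30%, 1.32% and 1.21%, and in male daily 1.15%, 1.21% and 0.919%. In females it was 1.53%, 1.78% and 1.57% with vehicle, 2.01%, 1.52% and 1.58% weekly, and 1.32%, 1.34% and 1.27% daily. The daily values lay below all vehicle values of the same sex, and the weekly values of both sexes overlapped the vehicle values.

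**Figure D1:**
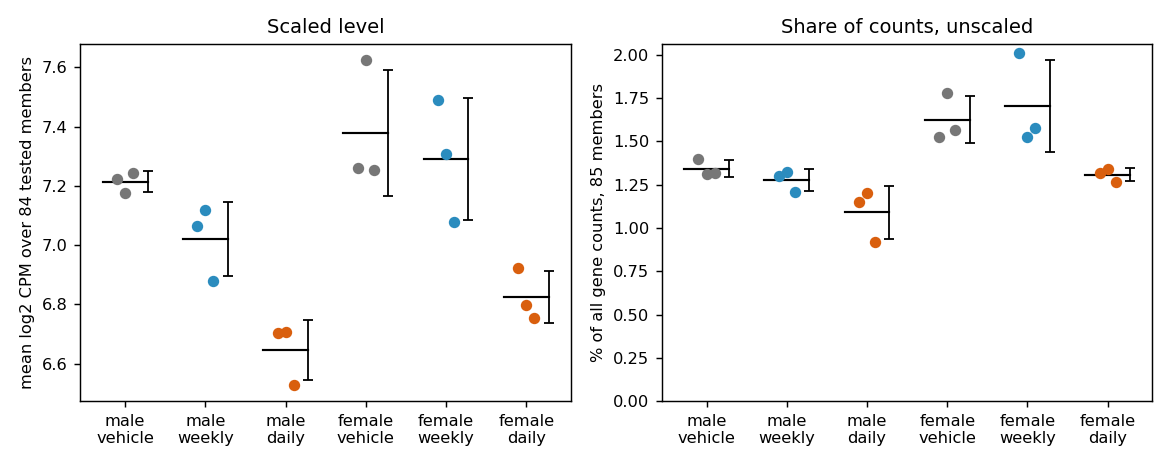
Level of the ribosomal protein genes by library. Points are libraries, horizontal bars the group means and vertical bars 1 SD (n = 3); the left axis is the mean log2 CPM over the 84 tested members and the right axis the percent of all gene counts in the 85 members. Daily libraries lie below the vehicle libraries of the same sex in both panels, the lowest right-hand point being 0.919% in a male daily library.

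Daily prednisone was compared with vehicle to ask how continuous exposure changed these genes. Ribosomal protein genes of both subunits were lower in daily mice of both sexes, and Rpl3 was the exception in males. In males 59 of the 84 tested members fell past an adjusted p of 0.05 and none rose, against 4.38% of all tested genes that fell (edgeR quasi-likelihood test, Benjamini-Hochberg over 13596 genes). In females 14 fell and none rose, against 0.25% of all genes, and all 14 were also among those of the males. The median log2 fold change was -0.55 in males and -0.57 in females over the members, and 0.05 and 0.01 over all tested genes. Log2 fold changes were below 0 for 83 of 84 members in males (45.5% of all genes) and for 84 of 84 in females (49.2%).

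Over both sexes together, which uses 6 libraries a side, 79 of the 84 members fell and none rose, against 7.47% of all genes lower. The 5 members not called were Rpl3, Rpl3l, Rpl4, Rplp0 and Rps19bp1. In males 82 of 84 members had all daily libraries below all vehicle libraries (17.1% of all genes), and in females 75 (10.2%). DESeq2 called 72 members lower in males (7.88% of all genes tested by it were lower) and 66 in females (1.77%), so the count in females depended on the test. No member was called in females with the compared groups alone, with mitochondrially encoded genes left out, with length and GC trends removed or with a score of adipocyte markers as a covariate, and none of the 14 stayed called in all 6 fits that left out 1 library. The other counts moved too. Over all alternatives, calls ranged from 6 to 72 in males and from 0 to 82 in the mean, each lowest with the adipocyte score. With library totals alone in place of scaling factors, an alternative added after seeing the data, 10 members were called in males and 5 in females, and the median over all genes was itself 0.29 and 0.21.

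**Figure D2:**
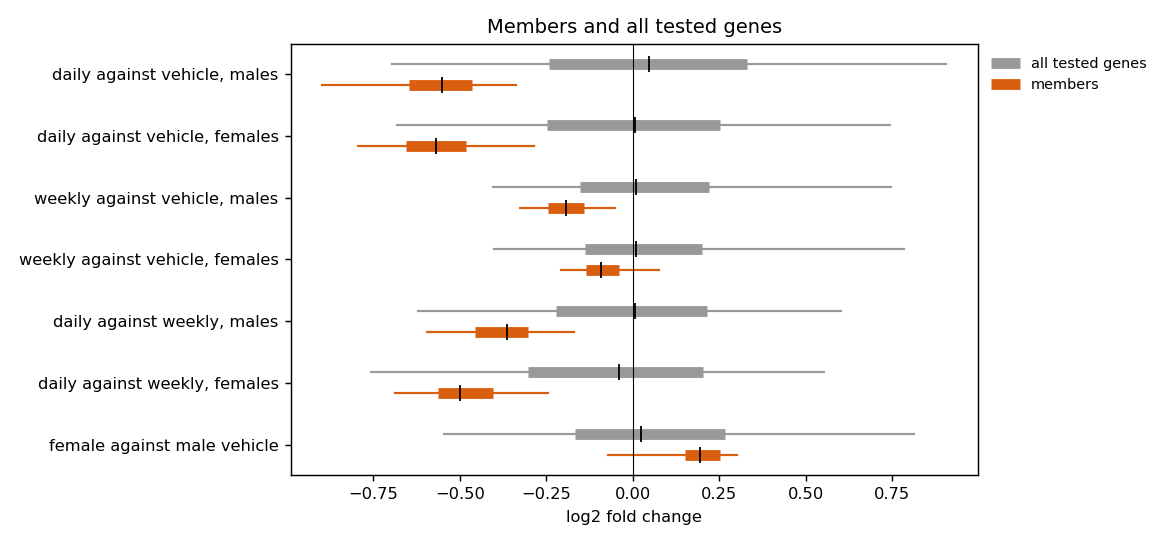
Log2 fold changes of the members and of all tested genes in each comparison. Black ticks are medians, thick bars the middle 50% of genes and thin bars the 5th to 95th percentiles; members are in orange and all 13596 tested genes in grey. In both daily comparisons the members lie below the middle of all genes, with medians of -0.55 and -0.57.

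The largest called falls were in genes of both subunits. Rpl37a, a zinc-binding protein of the large subunit, was measured at 167, 155 and 177 CPM in male vehicle libraries and at 88.3, 81.2 and 74.4 CPM in male daily libraries. In females it was at 173, 242 and 167 CPM with vehicle and 104, 104 and 98.9 CPM daily. The groups did not overlap in either sex. The log2 fold change was -1.03 ± 0.16 (SE) in males (edgeR adjusted p = 0.00578) and -0.92 ± 0.16 in females (0.0429).

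Rpl38, another large subunit protein, was at 83.4, 78.0 and 88.9 CPM in male vehicle and 43.2, 46.4 and 36.9 CPM in male daily libraries. Every male daily library was below every male vehicle library. The fall was -0.98 ± 0.18 in log2 (edgeR adjusted p = 0.00835), and in females, where the difference was -0.80 ± 0.18, it was not called (0.0553). Rpl24, a large subunit protein at the contact between subunits, had -0.98 ± 0.16 in males (0.00705), and Rpl36al, a near copy of Rpl36a, had -0.93 ± 0.17 (0.00858). In females Rps21, on the small subunit, had the largest called fall, -0.93 ± 0.17 (0.0429). It was at 125, 179 and 128 CPM in female vehicle libraries and at 73.2, 79.8 and 73.2 CPM in female daily ones, which lay below. Rpl36al (-0.90 ± 0.17, 0.0429), Rplp1 (-0.80 ± 0.16, 0.0429) and Rpl36a (-0.75 ± 0.16, 0.0483) followed. Over both sexes Rpl37a had -0.98 ± 0.11, Rpl36al -0.92 ± 0.12, Rpl38 -0.89 ± 0.12, Rps21 -0.87 ± 0.12 and Rpl24 -0.86 ± 0.11, the 5 largest called falls.

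**Figure D3:**
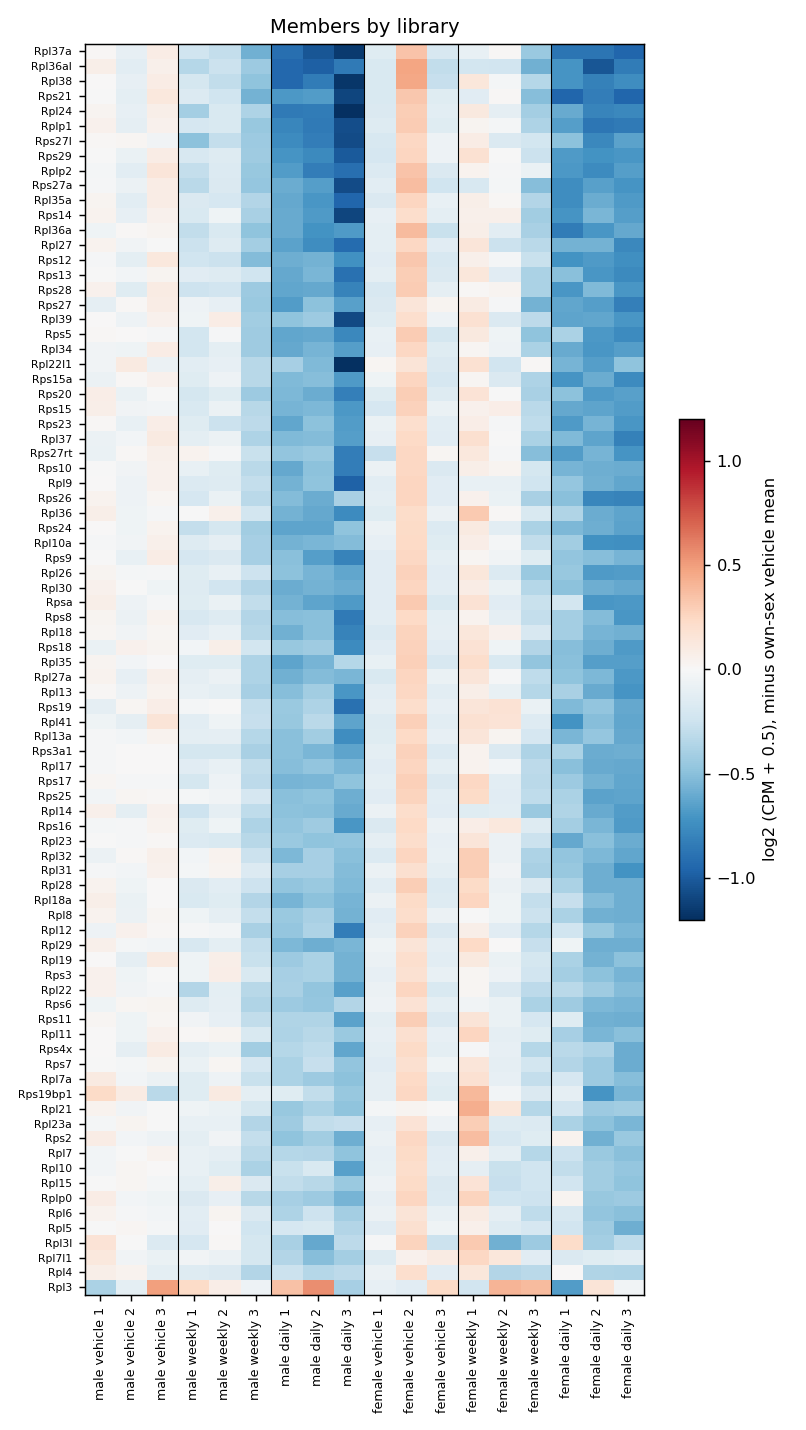
Members by library. Each row is 1 of the 84 tested members, ordered by the mean daily log2 fold change of both sexes, each column 1 library, and colour is log2 (CPM + 0.5) minus the mean of the vehicle libraries of the same sex. Daily columns are blue for nearly all rows, with Rpl37a at the top and Rpl3 at the bottom.

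The acidic stalk proteins Rplp1 and Rplp2 fell in both sexes. Rplp1 was at 402, 360 and 403 CPM in male vehicle and at 225, 214 and 185 CPM in male daily libraries (log2 -0.90 ± 0.16, edgeR adjusted p = 0.00774), which did not overlap. Rplp0, the base of the stalk to which the acidic pair binds, had -0.46 ± 0.18 in males (0.125) and -0.28 ± 0.18 in females (0.43), and was not called in either, and the difference between Rplp0 and the acidic pair was not tested. Its female daily values, 668, 477 and 485 CPM, overlapped the female vehicle values, 611, 783 and 584 CPM. Rpsa, a small subunit protein also known as the laminin receptor, fell in males (-0.63 ± 0.17, 0.0367), and Rps6, the substrate of the S6 kinases, had -0.42 ± 0.13 in males (0.0559) and -0.51 ± 0.13 in females (0.0739).

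The subunits had similar medians. Of 43 large subunit members, 27 fell in males and 4 in females (medians -0.53 and -0.55), and of 31 small subunit members 26 and 6 (medians -0.60 and -0.60). Across the 84 members, daily log2 fold changes of males and females, which share no library, went together (Pearson r = 0.785, Spearman rho = 0.793), as a description. Both sexes were scaled and fitted together, and members' reads, lengths and levels are shared between the axes.

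**Figure D4:**
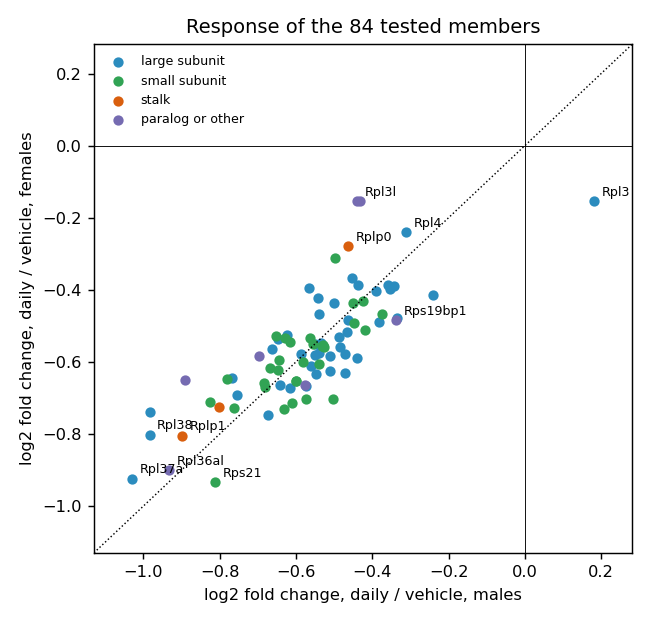
Daily log2 fold change of each tested member in females against males, coloured by role, with the dotted line marking equal change. Points lie near the dotted line in the lower left; Rpl3 stands to the right, at 0.18 in males and -0.15 in females.

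Shorter messages had lower log2 fold changes. Over the 84 members the daily log2 fold change and the log2 transcript length had Spearman rho of 0.511 in males and 0.587 in females. The 42 members up to the median length of 713 bases had medians of -0.61 in males and -0.64 in females, and the 42 longer ones -0.49 and -0.50. Calls in males were 36 of 42 among the shorter and 23 of 42 among the longer members. With trends of length and GC content over all genes removed, the medians were -0.45 and -0.48, and calls were 21 in males and 0 in females.

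**Figure D5:**
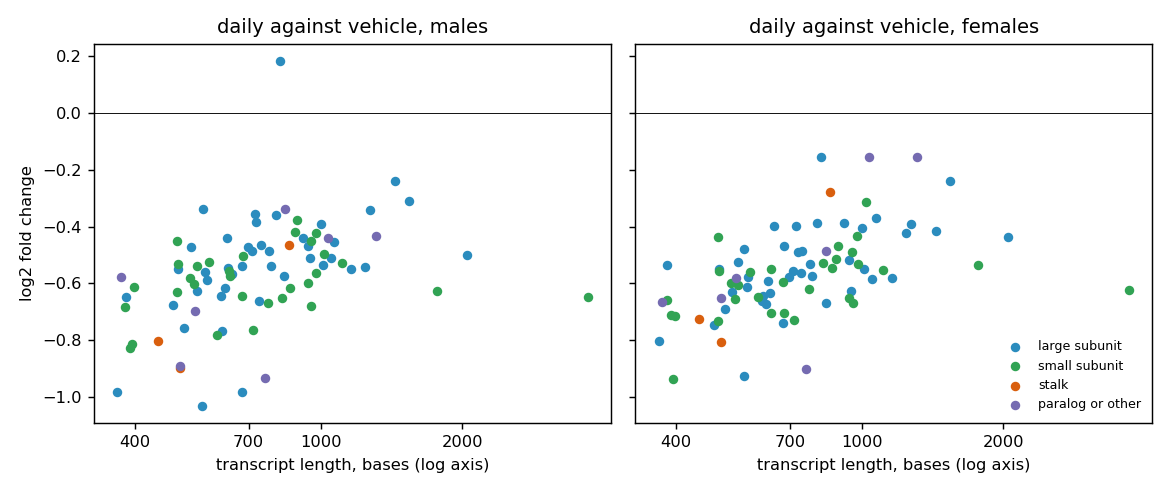
Daily log2 fold change of each tested member against transcript length (log axis) in males (left) and females (right), coloured by role. Fold changes are lower among the shorter members, whose medians are -0.61 and -0.64, and the point above 0 in males is Rpl3.

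Rpl3, a large subunit protein near the peptidyl transferase centre, and its muscle paralog Rpl3l were not called. Rpl3 was at 52.2, 62.4 and 95.7 CPM in male vehicle and 86.5, 100.2 and 51.4 CPM in male daily libraries, with wide overlap. The log2 fold change was 0.18 ± 0.27 in males and -0.15 ± 0.27 in females (edgeR adjusted p = 0.733 and 0.808). Rpl3l was at 517, 461 and 413 CPM in male vehicle and 353, 302 and 371 CPM in male daily libraries, which did not overlap. Its log2 fold change of -0.44 ± 0.22 in males was not called (edgeR adjusted p = 0.254). In females Rpl3l had -0.15 ± 0.22 (adjusted p = 0.761), with overlapping values.

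Ratios of a paralog to its canonical gene compare the pair within each library. Per kilobase, Rpl3l was the more abundant of its pair in every group, with group medians of the ratio from 2.12 in female weekly to 5.84 in male vehicle libraries. Rpl22l1 exceeded Rpl22 per kilobase in all 18 libraries, with group medians from 1.07 to 1.91. Before division by length, Rpl22l1 was the lower in all 18 libraries, with means of 47.1 against 95.2 CPM in male vehicle mice. The order thus depends on the annotated lengths used, 538.5 bases for Rpl22l1 and 2048 for Rpl22. Rpl39l was at most 0.0117 times Rpl39 in any library. Among the single genes, Rpl22l1, Rpl22, Rps27l, Rps27, Rpl7l1 and Rpl39 fell in daily males, by 0.70, 0.50, 0.89, 0.61, 0.43 and 0.64 on the log2 scale, while Rpl7 had -0.39 (edgeR adjusted p = 0.105). In daily females Rps27l fell (-0.65 ± 0.14, edgeR adjusted p = 0.0483) and Rpl7l1 had -0.15 ± 0.12 (0.53). Exact two-sided permutation tests of the log2 ratio within sex (400 relabellings, smallest possible p 0.005) over 6 pairs and both regimens gave 12 tests. The lowest p was 0.01 for Rpl39l/Rpl39 in daily mice (a difference of 0.66, adjusted p = 0.12), a ratio that rests on 87 counts of Rpl39l. Rpl39l was at 0.442 CPM per kb in vehicle mice, so the 0.5 CPM added to each gene weighs heavily in this ratio. Without that addition, the median per-kilobase ratio was 0.00251 in male vehicle and 0.00698 in male daily libraries. In females it went the other way, from 0.00445 with vehicle to 0.00283 daily. Rpl36al/Rpl36a had -0.20 (adjusted p = 0.23), and no pair passed an adjusted p of 0.05, which does not show that the ratios were alike.

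Weekly prednisone was compared with vehicle to ask whether a spaced dose did the same. No member was called in males, females or their mean, against 0% of all genes called in each. Unadjusted p values below 0.05 were found for 4, 1 and 10 members, against 5.71%, 7.97% and 11% of all genes, so the members' shares were near or below those of all genes. Neither DESeq2 nor limma-voom called a member. The medians were -0.19 in males and -0.09 in females, and 83 of 84 members in males (48.4% of all genes below 0) and 72 of 84 in females (48.6%) had log2 fold changes below 0. In males 52 members had all weekly libraries below all vehicle libraries (8.97% of all genes), and in females none did (3.13%). Rps27l, a p53-responsive relative of Rps27, had the smallest p in males, at -0.41 ± 0.14 (edgeR adjusted p = 0.849), and Rpl36al in females, at -0.37 ± 0.17 (0.594). In females the median was 0.03 without female vehicle replicate 2, 0.01 without female weekly replicate 3, and 0.069 with library totals alone, so no direction is given there. In males the median was -0.11, with 11 members above 0, without male weekly replicate 3, and -0.073, with 18 above 0, with library totals alone.

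Daily and weekly mice were also compared directly. No member was called in either sex by edgeR (0% of all genes in both), while unadjusted p values below 0.05 were found for 60 members in males and 72 in females (13.5% and 17.7% of all genes). In males 18 members had such a p without male daily replicate 3, 24 without male weekly replicate 2, 29 without male weekly replicate 1 and 21 with library totals alone. In females 2 members were called without female weekly replicate 1. DESeq2 called 18 members lower in males (1.96% of all genes tested by it) and 56 in females (2.35%), and limma-voom called 0 in both. The medians were -0.37 and -0.50, and 83 members in each sex had values below 0 (49.3% and 53.9% of all genes). In males 75 members had all daily libraries below all weekly libraries (12.7% of all genes), and in females 64 (7.34%). Rpl37a had the smallest p in males (-0.67 ± 0.16, edgeR adjusted p = 0.14), and Rplp2 in females (-0.69 ± 0.15, 0.069).

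The sexes were compared for their responses. The difference of the daily response between females and males was called for 0 members (0% of all genes), as was that of the weekly response (0%), and no member had an unadjusted p below 0.05 (4.69% and 2.63% of all genes) or was called by DESeq2 or limma-voom in either. The smallest p for the daily response was that of Rpl7l1, a nucleolar relative of Rpl7 (0.28 ± 0.17, edgeR adjusted p = 0.889). A count of 59 in males and 14 in females is thus no measured difference between the sexes.

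Vehicle females were compared with vehicle males. No member was called, against 0.765% of all genes, while 4 members had an unadjusted p below 0.05 (10.4% of all genes) and DESeq2 and limma-voom called 0. The median was 0.19, against 0.02 over all genes, and 77 of 84 members had values above 0 (53.4% of all genes). Without female vehicle replicate 2 the median was 0.074 and 66 of 85 members were above 0. In 32 members all female vehicle libraries were above all male ones (9.66% of all genes). Rpl22l1, at -0.42 ± 0.18, had the smallest p and was lower in females (edgeR adjusted p = 0.434). The X-linked members Rpl10, Rps4x, Rpl36a and Rpl39 had log2 differences of 0.28, 0.28, 0.29 and 0.28, above the members' 75th percentile of 0.25, and were not called.

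Genes of other translation lists were also tested, and in daily males 2.07% of all genes rose and 4.38% fell. Of 36 translation factor genes, 2 rose and 5 fell in daily males and 0 were called in daily females, with medians of -0.17 and -0.03. In the mean of both sexes 4 rose and 10 fell, against 7.48% and 7.47% of all genes. Eef1d, Eef1b2 and Btf3 fell in males by 0.62, 0.57 and 0.56 on the log2 scale, the first and second being subunits of elongation factor 1, and Pabpc1, which binds poly(A) tails, rose by 0.72. Of 46 ribosome assembly genes, 1 rose and 3 fell in daily males and 0 were called in daily females (medians -0.08 and 0.00). Within each sex these shares were near those of all genes. Of the same 46, 3 rose and 6 fell in the daily mean of both sexes, against 7.48% and 7.47% of all genes. Polr1d, shared by RNA polymerases I and III, fell by 0.68 in males, and Nop56, of the methylation complex for ribosomal RNA, rose by 0.51. Of 23 translation control genes, 2 rose and 0 fell in daily males, and over both sexes 6 rose (7.48% of all genes). One was Eif4ebp2, an mTOR-regulated inhibitor of cap-dependent translation (0.69 ± 0.10, edgeR adjusted p = 0.000961). The others were Larp4 (0.52), Rps6kb1 (0.48), Rps6ka3 (0.45), Rptor (0.32) and Mtor itself (0.28). Fau, which encodes a small subunit protein outside the symbol pattern, fell in males (-0.63 ± 0.16, 0.0298), and Rack1, a small subunit scaffold protein, had -0.32 and was not called.

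Markers of other cells moved with daily treatment, and those of adipocytes leaned the same way with weekly treatment. The summed level of 8 adipocyte markers was 534 to 1020 CPM in male vehicle, 892 to 1670 in male weekly and 945 to 2250 in male daily libraries. In females it was 1390 to 1530, 1650 to 7970 and 2450 to 6020 CPM. In vehicle mice Car3 (mean 543 CPM) and Fabp4 (463) made up most of this sum, while Cfd was at 66.7 and Adipoq at 8.97 CPM. The sum thus mainly follows Car3 and Fabp4 and is no measure of adipocyte number. Over both sexes 6 of these 8 rose in daily mice and 0 were called in weekly mice. Their median log2 fold change was 2.59 in the daily mean and 2.86 in the weekly mean, with all 8 above 0 in both. None of the 8 was at 0 in any group. With the adipocyte score as a covariate, 6 members were called in daily males and 0 in daily females and in the mean, while the medians were -0.50 in both sexes. Of 5 blood markers, 4 fell in the mean, from 116 to 170 CPM in male vehicle to 104 to 122 in male daily libraries, and from 96.5 to 175 to 68.0 to 88.6 CPM in females, and their part was not tested. Defining myofiber genes summed to over 115000 CPM in all groups, so the labelled tissue was present, and 2 of these 8 fell in the daily mean. Of the other 7 marker lists, 1 macrophage gene rose in the daily mean and in daily males and 1 Schwann cell gene rose in daily males, with no other call in daily mice, and 1 of the 5 T and B cell markers was at 0 in the male vehicle and the male weekly group. In such bulk samples, fewer cells of a type and less RNA per cell cannot be told apart.

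Total counts per library were 10506661 to 14686654, and mitochondrially encoded genes took 11.7% to 36.4% of them, 11.7% to 18.3% in female daily and 21.1% to 26.3% in female vehicle libraries. Female vehicle replicate 2 had the highest member share of its group, and 0 members were called in daily females without it, and also without female vehicle replicate 1, female daily replicate 2 or female daily replicate 3. Without female vehicle replicate 3 there were 12 calls and without female daily replicate 1 there were 9. In daily males the calls were 8 to 21 with any 1 of the compared libraries left out, the lowest being 8 without male vehicle replicate 1 and 8 without male daily replicate 3, where the medians were -0.54 and -0.48. Rpl24, Rpl36al, Rpl37a, Rpl38, Rplp1, Rplp2, Rps27l and Rps29 were called in males in all 6 fits that left out 1 library of those compared.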

How the data were processed

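The members, lists and tests were chosen with earlier results of these data known. The authors deposited unnormalized gene counts, made by alignment to mm10 according to the study's methods. The submitters' processing notes name TopHat2 2.1.0, Bowtie2 2.2.6 and HTSeq and the builds mm10 and mm9. Strand setting and annotation release are not given in the sources used here, so overlapping genes are uncertain. Of 43430 identifiers, 42462 had a symbol, and 52 of 85 members had GENCODE M21 coordinates.

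The test was that of edgeR 4.0.16 under R 4.3.3 (filterByExpr, minimum count 10, TMM factors, robust quasi-likelihood fit of 6 group means over 18 libraries, Benjamini-Hochberg over 13596 genes, called under 0.05). CPM are counts scaled to library total and TMM factor. DESeq2 1.42.0 and limma 3.58.1 (voom) were alternatives. Simulated data with 200 changed genes of 13357, drawn for daily and vehicle males, gave 50% recovery at 2-fold, 87% at 4-fold and 7.43% false calls. Paralog ratios used log2 of CPM + 0.5.

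Named genes were the 5 largest falls and rises among called members, the smallest p where none was called, the paralog pairs, the 5 most and 3 least abundant members, stalk and anchor proteins with Rps6, X-linked members, Rps19bp1, and up to 4 called genes of each list. Added to these were all translation control genes called in the daily mean and the adipocyte markers named above. Replicate numbers are those of the sample titles, and the labels give no matching of animals. Deviations from the group mean correlated positively at all 3 equal numbers only in daily and weekly females (0.501, 0.483 and 0.439). A replicate block changed no call there. No pair of libraries of the same group agreed within sampling noise, and pairs from different groups were not compared.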

Additional observations from a re-analysis of the deposited data

How the results depend on the processing

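The direction of the daily medians was kept in all 18 alternatives in each sex and all 24 for their mean, from -0.57 to -0.30 in males, -0.62 to -0.36 in females and -0.60 to -0.34 in the mean. The number of members called moved more, and the cause was not tested except where fewer libraries entered. With no scaling factors, chosen after seeing the data, all genes shifted by 0.29, 0.21 and 0.25 in daily males, females and their mean; the members' medians were -0.30, -0.36 and -0.34, and calls were 10 in males and 5 in females. In weekly females that setting gave a median of 0.069. Called members in daily males were 33 with no filter, 21 with length and GC trends removed, 17 with the replicate block and these trends removed, and 6 with the adipocyte score. In daily females they were 66 by DESeq2 and 4 with no filter, and 0 with the compared groups alone, with mitochondrially encoded genes left out, with length and GC trends removed, with or without the replicate block, and with the adipocyte score; in the mean the adipocyte score gave 0. Daily against weekly, DESeq2 called 18 members in males and 56 in females, and in females the replicate block with trends removed gave a median of -0.36.

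With the replicate block, 49 members were called in daily males, 0 in daily females and 80 in the mean. Without 1 library, calls ranged from 8 to 21 in daily males, from 0 to 12 in daily females and from 0 to 2 in daily against weekly females. Rpl3, never called, reversed to 0.063 in females with no scaling factors, as did Rpl3l to 0.046, and Rpl3 in the mean reversed to -0.015 by limma-voom, -0.013 with the replicate block and -0.031 with the adipocyte score. Without 1 library, Rpl3 ranged from -0.022 to 0.498 in males, from -0.333 to 0.049 in females and from -0.088 to 0.175 in the mean. Over both sexes, no paralog ratio changed its direction or its call in 15 alternatives. The other addition tried was 2 CPM in place of 0.5. Without any addition, the female medians of Rpl39l/Rpl39 went the other way, from 0.00445 with vehicle to 0.00283 daily.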
